A study of Mus musculus with 16 samples.

Results

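Genes of the major histocompatibility complex (MHC) and of antigen presentation were measured in the bone marrow of 16 mice, 8 KO chimeras and 8 controls, with 1 array per mouse. They were taken as every probe on the array whose gene name starts with H2- or is B2m, Cd74, Ciita, Tap1, Tap2, Tapbp or Cd1d1. This gave 63 of the 55681 probes on the array, for 46 gene names. Probes were kept where 6 or more of the 8 arrays in a group showed a signal well above background, which left 49 member probes for 37 gene names, of 32693 probes for 23064 gene names in all. KO chimeras were C57BL/6J mice that had been lethally irradiated with 950 Rad and had received whole marrow of Adrb1tm1BkkAdrb2tm1Bkk/J mice, which carry knockout alleles of 2 beta adrenergic receptors, injected once behind the eye; the labels give a ratio of 1 to 4 for Adrb1tm1BkkAdrb2tm1Bkk/J against C57BL/6J. Controls are labelled as irradiated C57BL/6J mice (950 Rad), with no donor strain named. Both groups share the irradiation and the C57BL/6J host strain. The labels of all 16 mice carry the same text on recovery, 2 to 3 months for reconstituted mice before tissue was taken, and no age is given. The comparison asks how marrow changes when its cells come in part from donors without these receptors, and it cannot tell receptor loss apart from other genetic differences of the donors or from the graft.

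Class I molecules, made of a heavy chain and the light chain B2m, show peptides from inside the cell to CD8 T cells, and nonclassical class I molecules and Cd1d1 show special peptides or lipids to other lymphocytes. Class II molecules show peptides from engulfed material to CD4 T cells and are made mainly by B cells, dendritic cells and macrophages, where Ciita acts as the master switch of their transcription. Marrow holds all of these cells, B cells and their precursors among them. In whole marrow, fewer cells of a type and less RNA per cell cannot be told apart.

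The promoters of class II genes share short boxes on which Ciita is assembled, an X box bound by the RFX complex and a Y box bound by NF-Y. They are shown because the class II genes are compared below as a group that shares this switch. RefSeq's promoter table (GRCm38.p6) held 31 of the 46 member genes, 8 of them class II genes. In the 250 bases before the start, both the X box core AGCAAC and the Y box core GATTGG, searched on both strands, were found for H2-Oa, H2-Ob, H2-Eb1 and H2-Eb2, and in 1.96% of 32851 promoters. AGCAAC was in 12.2% and GATTGG in 14.6% of promoters, those with both included. Capitals mark the cores, and the stretches are 5′ to 3′ on the strand of the gene. H2-Eb1 and H2-Eb2 have 26 bases between the cores, H2-Oa 27 and H2-Ob 24. The windows of H2-Aa, H2-DMa, H2-DMb1 and H2-DMb2 hold GATTGG without AGCAAC. Among member genes AGCAAC was found for 4, all of class II. GATTGG was found for 24 of the 31, H2-K1, H2-D1, B2m and Tap1 among them. The Y box core was therefore not confined to class II genes.
H2-Oa, chr17:34092296-34092346, plus strand: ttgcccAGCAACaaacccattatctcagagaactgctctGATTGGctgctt
H2-Ob, chr17:34238811-34238858, plus strand: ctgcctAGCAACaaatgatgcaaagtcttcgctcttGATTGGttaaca
H2-Eb1, chr17:34305769-34305818, plus strand: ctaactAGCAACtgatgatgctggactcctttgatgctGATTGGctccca
H2-Eb2, chr17:34325536-34325585, plus strand: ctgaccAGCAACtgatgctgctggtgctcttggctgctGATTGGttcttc
H2-Aa, chr17:34287843-34287896, minus strand: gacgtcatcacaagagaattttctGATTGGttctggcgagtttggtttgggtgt

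Classical class I promoters carry a kappa B site and an interferon response element, shown here for H2-K1 and H2-D1. GGGGATTCCCC, on either strand, was in 0.0304% of promoters, AGTTTCACTTCT in 0.0274% and both in 0.0122%. Both are in the H2-K1 and H2-D1 windows, 8 bases apart, and AGTTTCACTTCT is also in those of H2-Q4, H2-Q7 and H2-Q10. Capitals mark the matches.
H2-K1, chr17:34000422-34000464, minus strand: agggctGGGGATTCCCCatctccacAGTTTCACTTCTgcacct
H2-D1, chr17:35262917-35262959, plus strand: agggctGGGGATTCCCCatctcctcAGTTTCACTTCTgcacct

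Probe sequences bear on what some of the values stand for, since MHC genes resemble each other and some probes hold words of repeat families. Stretches of 30 bases are shown for 2 probes that passed the test, with the repeated word in capitals. The brighter H2-T24 probe (chr17:36142640-36142699, minus strand, mm9) holds TTTAATCCCAG of the B1 repeat family, found in 11 of the 32689 tested probes, itself included, of which 5 were higher and 0 lower in KO chimeras, with a median difference of 0.25 on the log2 scale. The dimmest H2-Ob probe (chr17:34377309-34377368, plus strand) holds GATGGCTCAGTG of the B2 repeat family, found in 6 tested probes, itself included, of which it alone was higher. Reverse complements of both words were in 0 member probes, and the 10 (B1) and 2 (B2) tested probes that hold them were not added to these counts. Over all tested probes, 11.4% were higher and 12.2% lower. The words were picked from the 2 probes shown, and the families were assigned by these words alone, without a repeat annotation.
H2-T24: aaaccTTTAATCCCAGgagacaaagacaaa
H2-Ob: acatagaatgggccgaaaGATGGCTCAGTG

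Shared runs limit how far class I genes can be told apart. Of 317 pairs of kept class I probes of different genes, 7 share a run of 15 or more bases, and 2 share 25 or more. H2-K1 and H2-T23 share 29 bases and H2-K2 and H2-Q7 share 28, marked by capitals. The probes of the nonclassical genes that passed the test are in none of the 7 pairs. Only probes were compared with each other, so binding of a probe to RNA of a related gene was not tested. Nor was it tested whether donor alleles differ from those of the host at the probes. Both H2-Ab1 probes lie on the same bases, with 51 positions in common and 1 difference, T21C, counted from 1 at the 5′ end of the stretches shown (the brighter probe has the first base), so they do not measure H2-Ab1 independently.
H2-K1, chr17:34133984-34134043, minus strand: TGGAGCTGTGGTGGCTTTTGTGATGAAGAt
H2-T23, chr17:36167338-36167574, minus strand: TGGAGCTGTGGTGGCTTTTGTGATGAAGAg
H2-K2, chr17:34111941-34112000, minus strand: TCTCCTGTGACATCCAGAGCCCTCAGTTtt
H2-Q7, chr17:35580315-35580374, plus strand: cTCTCCTGTGACATCCAGAGCCCTCAGTTc
H2-Ab1, brighter probe, chr17:34406296-34406355, plus strand: agattacaaataaacgagacTcagactctg
H2-Ab1, dimmer probe, chr17:34406305-34406363, plus strand: agattacaaataaacgagacCcagactctg

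Values below are log2 of the processed signal over the array's 75th percentile, called log2 signal, and differences are KO chimera minus control with the SE of limma's fit over 8 mice in each group. KO chimera arrays had 75th percentiles of 127 to 545 and control arrays of 231 to 558, and no spot was saturated. Adrb1, a targeted gene, had a lowest, median and highest log2 signal of -2.99, -2.41 and -2.19 in KO chimeras, against -2.58, -2.51 and -2.34 in controls, on its brighter probe. The sources used here do not place that probe relative to the deleted part, so it does not check the genotype. Markers of neutrophils and erythroid cells, the most abundant cells of marrow, were measured in both groups, and 0 of 9 and 0 of 8 passed the test. Of the other cells, megakaryocyte markers had 4 of 6 lower and 0 higher, T and NK cell markers 2 of 10 higher and 2 lower, and markers of stroma and vessels 2 of 8 higher and 1 lower. Over all genes, 10.2% were higher and 12.1% lower by brightest probe. The part of these other cells in the members' values was not tested. Control 3 stood apart for the class II genes, as described with them, and it is the only array on its slide. It was also the lowest control for some class I probes, among them H2-D1, H2-T10 and H2-T23, but not for the brightest H2-K1 probe or B2m.

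Of the 49 kept member probes, 8 were higher and 2 were lower in KO chimeras at an adjusted p under 0.05 in limma over all tested probes, and 39 did not pass. Over all tested probes 11.4% were higher and 12.2% were lower, so the members' share called, 20.4%, lies near the 23.5% of all probes called in either direction. The median member difference was 0.07, against -0.01 over all probes, and the median absolute difference was 0.17, against 0.20. Called higher were the nonclassical genes H2-T10, H2-T24, H2-Q5, H2-M2 and H2-M9, both Cd1d1 probes and 1 of 3 H2-Ob probes, and called lower were Ciita and H2-Eb2. Among the 22 nonclassical class I probes 5 were higher, 0 lower, and 18 differences were positive. Among these 5, the dimmer H2-M2 probe was kept through KO chimera arrays alone, where it is high, so the filter favoured its call. Without probes kept through 1 group alone, a count added after seeing the data, 7 of 47 member probes were higher and 2 lower, and 4 of 21 nonclassical probes were higher. Among the 13 class II probes 1 was higher, 1 lower, and 9 differences were negative. Over all tested probes 48.3% of differences were positive, and probes measured in the same mice do not give independent signs. In 1 probe, of H2-T24, every KO chimera lay above every control, as in 3.06% of all probes, and in 0 members did every KO chimera lie below every control (3.28% of all probes).

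**Figure D1:**
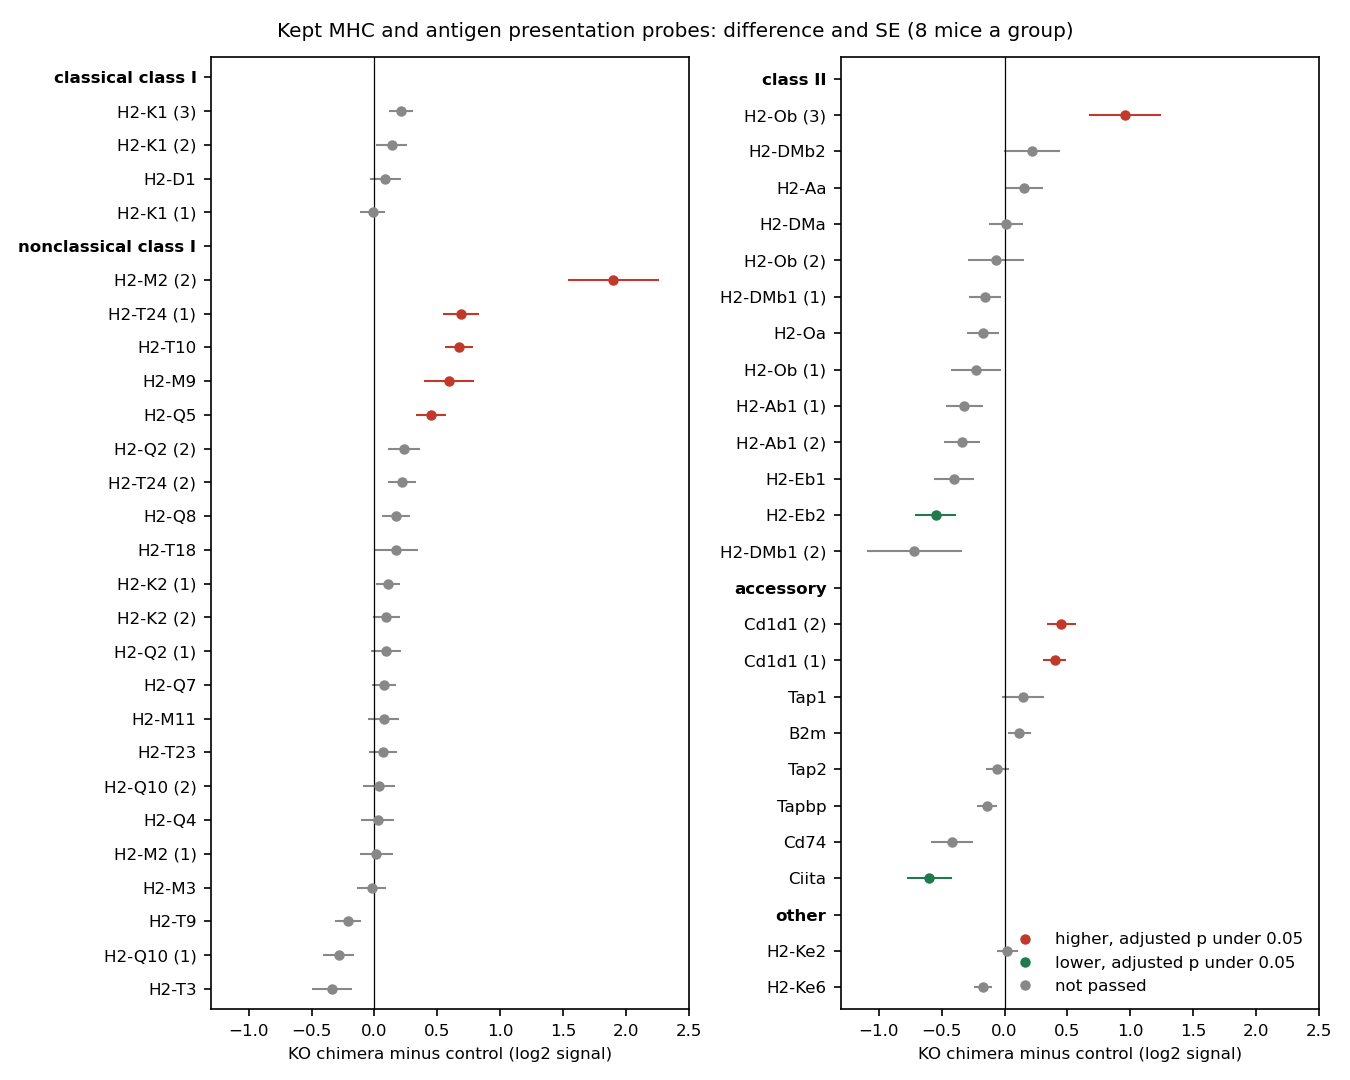
Difference in log2 signal, KO chimera minus control, with its SE for each of the 49 kept probes, by class; numbers in brackets rank the probes of a gene from brightest to dimmest, and 8 mice were measured in each group (7 KO chimeras for H2-M9). Probes past the test lie right of 0 among nonclassical class I genes and Cd1d1, and left of 0 for H2-Eb2 and Ciita, while 1 H2-Ob probe lies right of the others.

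The classical class I heavy chains H2-K1 and H2-D1, which display peptides on nearly all nucleated cells, did not pass the test on any of 4 probes. The brightest H2-K1 probe had a lowest, median and highest log2 signal of 6.89, 7.32 and 7.60 in KO chimeras, against 7.05, 7.34 and 7.58 in controls. The groups overlapped over nearly their whole range. The difference was -0.01 ± 0.10 (95% interval -0.22 to 0.19, adjusted p = 0.939), and the other H2-K1 probes differed by 0.14 and 0.21 (adjusted p = 0.462 and 0.120). For the dimmest H2-K1 probe 5 of 8 KO chimeras lay above the highest control, so the probes of this gene did not give the same size of difference. H2-D1 had 6.81, 7.10 and 7.47 in KO chimeras, against 6.76, 6.99 and 7.34 in controls, a difference of 0.09 ± 0.12 (95% interval -0.17 to 0.34, adjusted p = 0.665).

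The parts that class I chains need to reach the surface did not pass either. B2m, the light chain of all class I molecules, had a lowest, median and highest log2 signal of 6.94, 7.12 and 7.59 in KO chimeras, against 6.84, 7.10 and 7.24 in controls. Its groups overlapped, with 2 KO chimeras above the highest control, and differed by 0.12 ± 0.09 (95% interval -0.08 to 0.32, adjusted p = 0.411). Tap1 and Tap2 form the transporter that moves peptides into the endoplasmic reticulum. Tap1 had 0.07, 0.64 and 0.96 in KO chimeras, against -0.08, 0.47 and 0.94 in controls (difference 0.14 ± 0.17, adjusted p = 0.591). Tap2 had 4.07, 4.30 and 4.52 in KO chimeras, against 4.11, 4.35 and 4.59 in controls (difference -0.06 ± 0.09, adjusted p = 0.706). Tapbp, or tapasin, tethers the class I chain to that transporter. It had 2.90, 3.01 and 3.30 in KO chimeras, against 3.05, 3.20 and 3.36 in controls, and 5 KO chimeras lay below the lowest control (difference -0.14 ± 0.08, adjusted p = 0.224).

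Among nonclassical class I genes, H2-T10 had the smallest adjusted p of any member. Its product and that of the closely related H2-T22 are recognised by some gamma delta T cells. H2-T10 (chr17:36255918-36255977, mm9) had a lowest, median and highest log2 signal of 1.01, 1.27 and 1.49 in KO chimeras, against 0.22, 0.59 and 1.02 in controls. All but 1 KO chimera lay above the highest control. The signal was 1.60-fold higher in KO chimeras (log2 difference 0.67 ± 0.11, adjusted p = 3.11e-04). Each of 2 scan days held 4 KO chimeras and 4 controls, and the difference was 0.68 within day 1, which did not pass (adjusted p = 0.0584), and 0.67 within day 2.

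H2-T24, also in the T region of the complex, rose on 1 of its 2 probes. The brighter probe, which holds the B1 word shown above, had 0.28, 0.46 and 1.39 in KO chimeras, against -0.34, -0.06 and 0.15 in controls, without overlap. The difference was 0.69 ± 0.14 (1.61-fold, adjusted p = 0.00176), with 0.80 within scan day 1, which did not pass, and 0.58 within scan day 2. The dimmer probe (chr17:36143605-36143664) had -1.22, -1.0 and -0.64 in KO chimeras, against -1.42, -1.24 and -0.88 in controls, and 3 KO chimeras lay above the highest control. Its difference of 0.22 ± 0.11 did not pass (adjusted p = 0.180). It was called higher only with array brightness as a covariate (0.30, adjusted p = 0.0499) and with array weights (0.32, adjusted p = 0.0369). The part of the B1 word in the difference between the probes was not tested.

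H2-Q5 (chr17:35532392-35532451) rose by 0.45 ± 0.12 (1.37-fold, adjusted p = 0.00998). The array design assigns its probe to a RefSeq transcript of the non-coding type, so the rise does not show more of a class I molecule. H2-Q5 had a lowest, median and highest log2 signal of 2.43, 2.74 and 3.19 in KO chimeras, against 2.03, 2.31 and 2.64 in controls. Of the KO chimeras, 5 of 8 lay above the highest control. The difference was 0.45 within each scan day, and neither passed (adjusted p = 0.156 and 0.0821). The other Q region genes did not pass. H2-Q7, which encodes the Qa-2 antigen, differed by 0.08 ± 0.09 (adjusted p = 0.616) and H2-Q8 by 0.17 ± 0.11 (adjusted p = 0.290). H2-Q10, a secreted class I molecule known from liver, gave -0.28 ± 0.12 on its brighter probe (adjusted p = 0.103) and 0.04 ± 0.13 on the other (adjusted p = 0.866). With array brightness as a covariate the brighter H2-Q10 probe was called lower (-0.40, adjusted p = 0.00631), as it was with array weights (-0.43, adjusted p = 0.00776). It had 4 of 8 KO chimeras below the lowest control, and the probes of H2-Q10 disagreed in sign.

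In the M region, H2-M2 and H2-M9 passed only on probes near the background. The dimmer H2-M2 probe (chr17:37618042-37618101) was well above background in 7 KO chimeras and 2 controls, with a lowest, median and highest log2 signal of -4.48, -3.59 and -2.41 in KO chimeras, against -7.03, -5.12 and -4.19 in controls. All but 1 KO chimera lay above the highest control (difference 1.90, adjusted p = 9.94e-04). The size of that difference is not settled, since 6 of 8 controls were not well above background, and normexp background correction with quantile normalization gave 0.40 (adjusted p = 0.00342). Within scan days it was 2.88 on day 1 and 0.92 on day 2, which did not pass. The brighter H2-M2 probe (chr17:37618259-37618439) had 4.28, 4.56 and 4.85 in KO chimeras, against 4.20, 4.50 and 5.23 in controls, and gave no call (difference 0.02 ± 0.13, adjusted p = 0.953). The 2 probes of this gene therefore did not give the same result, and the brighter probe is the one measured on every array. H2-M9 (chr17:36777646-36777705) had -3.71, -3.29 and -2.53 in 7 KO chimeras, 1 spot having been left out, against -4.47, -3.95 and -3.14 in 8 controls (difference 0.59 ± 0.20, adjusted p = 0.0415). Only 2 KO chimeras lay above the highest control, and H2-M9 lost its call when any of 10 mice, left out in turn, was missing, where the adjusted p reached 0.0809. Its difference was 0.33 with normexp and 0.87 under quantile normalization, and neither passed.

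H2-M3, which presents peptides that start with N-formyl methionine, as bacteria make them, differed by -0.02 ± 0.12 (adjusted p = 0.924). H2-T23, or Qa-1, which is read by inhibitory receptors of NK cells, differed by 0.07 ± 0.11 (adjusted p = 0.722), on a probe that shares a run with H2-K1. H2-T3, which encodes a thymus leukaemia antigen, had the lowest difference of the class, -0.34 ± 0.16 (adjusted p = 0.146), and 5 KO chimeras lay below the lowest control. It was called lower with array brightness as a covariate (-0.50, adjusted p = 0.00469) and with array weights (-0.47, adjusted p = 0.0140). The H2-T3 probe shares 22 bases in a row with the brighter H2-Q10 probe, which gained a call in the same settings. The differences of all 17 nonclassical probes that did not pass ran from -0.34 to 0.24. A further 8 nonclassical genes had no kept probe, among them H2-M1 and H2-M10.1, H2-M10.2, H2-M10.3, H2-M10.4 and H2-M10.6, of families known from the vomeronasal organ, with H2-M5 and H2-Q1. Each of their probes was well above background on at most 2 KO chimera and 3 control arrays.

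**Figure D2:**
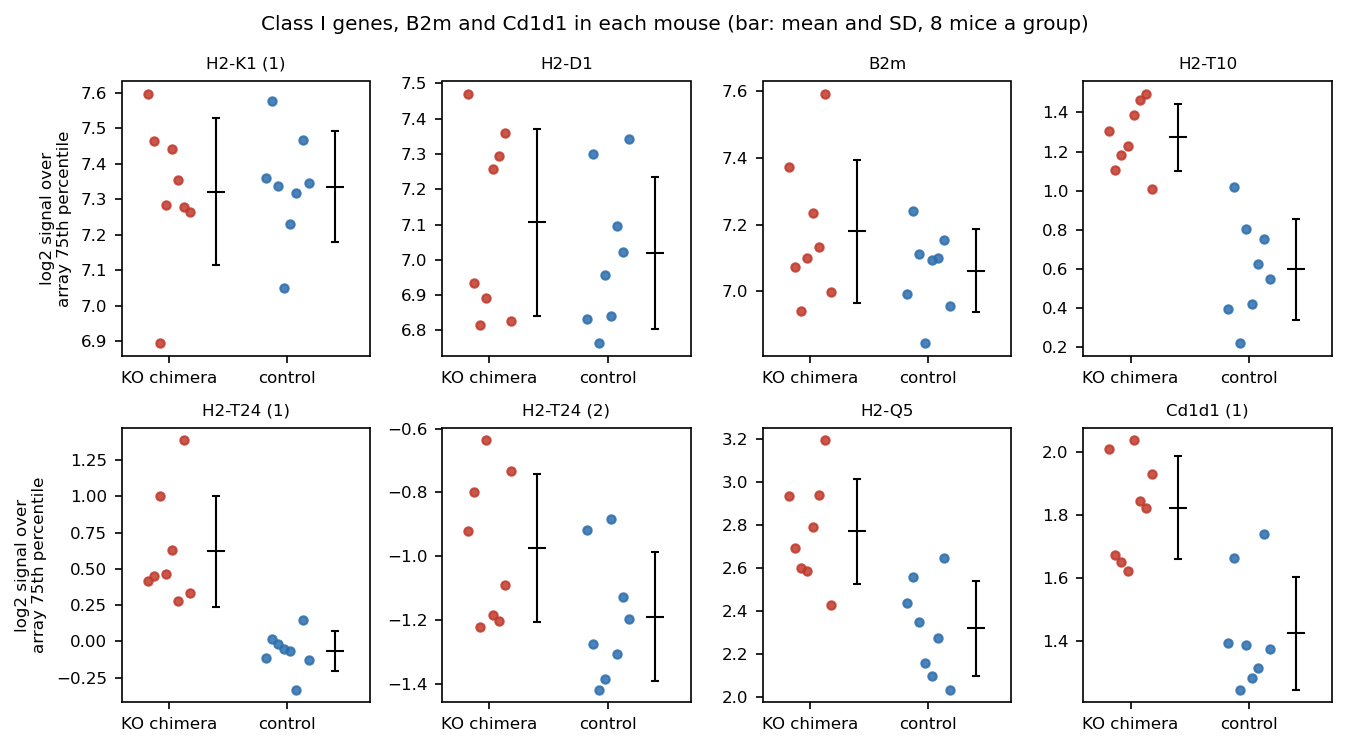
Log2 signal over the array's 75th percentile in each mouse, KO chimeras left and controls right, for H2-K1, H2-D1, B2m, H2-T10, both H2-T24 probes, H2-Q5 and Cd1d1, with mean and SD; numbers in brackets rank a gene's probes by brightness. The H2-T24 (1) groups do not overlap, and H2-T10 has 7 of 8 KO chimeras above the highest control.

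Cd1d1, which presents lipids to NKT cells, was higher in KO chimeras on both of its probes. The brighter probe (chr3:86799791-86799850) had a lowest, median and highest log2 signal of 1.62, 1.83 and 2.04 in KO chimeras, against 1.24, 1.38 and 1.74 in controls, and 5 KO chimeras lay above the highest control. It differed by 0.40 ± 0.09 (1.32-fold, adjusted p = 0.00495). The dimmer probe (chr3:86800368-86800427) had -0.87, -0.64 and -0.18 in KO chimeras, against -1.49, -0.98 and -0.71 in controls, and 6 KO chimeras lay above the highest control. It differed by 0.45 ± 0.11 (1.37-fold, adjusted p = 0.00794). Within scan days 1 and 2 the brighter probe differed by 0.33 and 0.47 and the dimmer by 0.37 and 0.53, of which only the 0.47 passed. Its neighbour and close relative Cd1d2 was higher too, by 0.77 ± 0.11 (adjusted p = 6.44e-05), on a probe that shares at most 8 bases in a row with those of Cd1d1. Whether the probes of either gene bind RNA of the other was not tested.

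Most class II genes did not pass the test. Of the 3 beta chain genes of the A and E molecules, H2-Eb2 was lower and H2-Ab1 and H2-Eb1 gave negative differences that did not pass, while the alpha chain gene H2-Aa gave a positive one. H2-Ab1 and H2-Aa encode the beta and alpha chains of the A molecule, the main class II molecule of C57BL/6 mice. The brighter H2-Ab1 probe had a lowest, median and highest log2 signal of 6.31, 6.77 and 7.18 in KO chimeras, against 6.63, 7.15 and 7.43 in controls (difference -0.32 ± 0.14, 95% interval -0.62 to -0.01, adjusted p = 0.124). H2-Aa had 3.13, 3.58 and 3.99 in KO chimeras, against 2.80, 3.50 and 3.73 in controls (difference 0.16 ± 0.15, adjusted p = 0.493). Both genes' groups overlapped. Whether the chains differ from each other was not tested.

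H2-Eb2, a second beta chain gene of the E molecule, fell by 0.55 on the log2 scale (SE 0.16, adjusted p = 0.0188). Its lowest, median and highest log2 signal was -1.45, -0.68 and -0.44 in KO chimeras, against -0.70, -0.28 and 0.24 in controls, and 3 KO chimeras lay below the lowest control. Within scan days 1 and 2 the difference was -0.75 and -0.35, and neither passed. H2-Eb1, the main E beta chain, whose promoter shares both boxes and their spacing with H2-Eb2, had 5.92, 6.52 and 7.01 in KO chimeras, against 6.45, 7.04 and 7.22 in controls. Again 3 KO chimeras lay below the lowest control, but the difference of -0.40 ± 0.16 did not pass (95% interval -0.74 to -0.07, adjusted p = 0.0757). H2-Ea-ps, the E alpha gene that C57BL/6 mice carry in a silent form, was well above background on 0 of 8 KO chimera and 0 of 8 control arrays.

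The genes of peptide loading did not pass on their brightest probes. H2-DMa and H2-DMb1 form H2-DM, which exchanges peptides on class II molecules. H2-DMa had 2.03, 2.32 and 2.80 in KO chimeras, against 1.87, 2.45 and 2.64 in controls (difference 0.01 ± 0.13, adjusted p = 0.962). The brighter H2-DMb1 probe had 3.38, 3.66 and 4.18 in KO chimeras, against 3.51, 3.99 and 4.11 in controls (difference -0.15 ± 0.13, adjusted p = 0.425). A dim H2-DMb1 probe, above background in 4 KO chimeras and 8 controls, differed by -0.72 ± 0.38 (adjusted p = 0.191). H2-DMb2, a second DM beta chain, had -0.84, -0.08 and 0.52 in KO chimeras, against -1.23, -0.19 and -0.04 in controls, and 4 KO chimeras lay above the highest control (difference 0.22 ± 0.22, adjusted p = 0.527).

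H2-Oa and H2-Ob form H2-O, which restrains H2-DM, mainly in B cells. H2-Oa had 1.46, 2.05 and 2.22 in KO chimeras, against 1.61, 2.18 and 2.42 in controls (difference -0.17 ± 0.13, adjusted p = 0.373). The brightest H2-Ob probe had 1.77, 2.60 and 3.12 in KO chimeras, against 2.01, 2.81 and 3.23 in controls (difference -0.22 ± 0.20, adjusted p = 0.462), and the next differed by -0.07 ± 0.22 (adjusted p = 0.865). Only the dimmest H2-Ob probe, which holds the B2 word, was called, and in the other direction. It had -3.11, -2.37 and -1.47 in KO chimeras, against -4.11, -3.35 and -2.36 in controls, and 4 KO chimeras lay above the highest control (difference 0.96 ± 0.29, adjusted p = 0.0215). That call was lost with slide as a block (0.84, adjusted p = 0.108) and with array brightness as a covariate (0.79, adjusted p = 0.0557), and normexp gave 0.40 (adjusted p = 0.0341), so the gene's probes do not give H2-Ob a direction.

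Of the factors that serve all class II genes, Ciita was lower in KO chimeras and Cd74 did not pass. Ciita (chr16:10526568-10526627) had a lowest, median and highest log2 signal of -0.65, -0.16 and 0.54 in KO chimeras, against 0.02, 0.56 and 0.88 in controls, and 5 of 8 KO chimeras lay below the lowest control. It fell by 0.60 on the log2 scale (SE 0.18, adjusted p = 0.0222), with differences of -0.71 and -0.48 within scan days 1 and 2, neither of which passed. The value rests on 1 probe, and how much of its signal comes from Ciita RNA was not tested. Cd74, the invariant chain that escorts class II molecules to the compartment where peptides are loaded, had 5.0, 5.50 and 5.97 in KO chimeras, against 5.16, 6.13 and 6.21 in controls. Its difference of -0.42 ± 0.17 did not pass (95% interval -0.77 to -0.06, adjusted p = 0.0825).

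**Figure D3:**
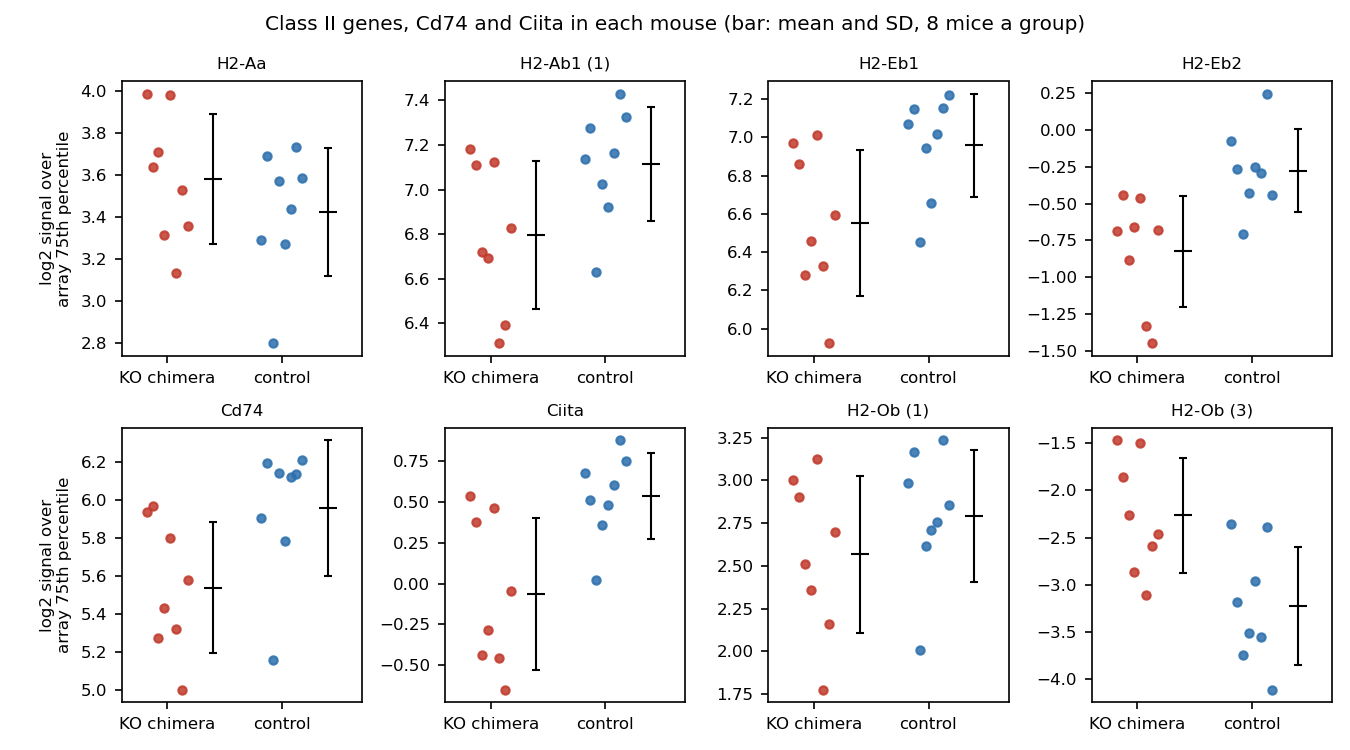
Log2 signal over the array's 75th percentile in each mouse, KO chimeras left and controls right, for class II genes, Cd74 and Ciita, with mean and SD; numbers in brackets rank a gene's probes by brightness. The Eb1, Eb2, Cd74 and Ciita points of KO chimeras reach lower than those of controls, 1 control is low for most of these genes, and H2-Ob (3) runs the other way from H2-Ob (1).

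The mice that were low for one class II gene were low for others. Ranks were compared over 11 genes, namely H2-Aa, H2-Ab1, H2-Eb1, H2-Eb2, H2-DMa, H2-DMb1, H2-DMb2, H2-Oa, H2-Ob, Cd74 and Ciita, by their brightest probes. KO chimera 6 was among the 3 lowest KO chimeras for 9 of the 11 genes, KO chimera 4 for 8, KO chimera 7 for 7 and KO chimera 3 for 6, while KO chimeras 1, 2 and 5 were for 0. Control 3 was the lowest control for all 11, and control 2 was among the 3 lowest controls for 10 and control 7 for 7. Low values in control 3 were not confined to class II genes, since it was also the lowest control for H2-D1, H2-T10 and H2-T23. Without control 3, Cd74 (-0.53, adjusted p = 0.0126), H2-Eb1 (-0.48, adjusted p = 0.0370) and the dimmer H2-Ab1 probe (-0.41, adjusted p = 0.0375) passed as lower, which made 5 lower member probes in place of 2. The fit with slide as a block, in which control 3 does not count because it is alone on its slide, gave 6 lower member probes, with Cd74 at -0.55 (adjusted p = 0.00637). Without KO chimera 2 there were 4, with H2-Eb1 (-0.47, adjusted p = 0.0414) and H2-T3 (-0.44, adjusted p = 0.0259) added.

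Summed B cell markers were low in some of the same mice, without following the same order throughout. The log2 of the 12 summed B cell markers was lowest in KO chimeras 6, 4 and 3, at 5.96, 6.07 and 6.38. It was 6.42 in KO chimera 7 and 7.17 in KO chimera 2, the highest of that group. In control 3 it was 5.99, and it ran from 6.74 to 7.32 in the other controls. Controls 2, 6 and 7, among the 3 lowest controls for 10, 1 and 7 of the 11 genes, were at 6.74, 6.76 and 6.82. On the linear scale the sum was 62.3, 99.9 and 144 in KO chimeras (lowest, median and highest) and 63.6, 113 and 160 in controls. Between the groups, 1 of 12 B cell markers was lower, namely Cr2, the complement receptor of mature B cells (-0.65, adjusted p = 0.0126), and 0 were higher. Over all genes, 12.1% were lower and 10.2% higher by brightest probe. The part of B cell number in the class II values was not tested.

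**Figure D4:**
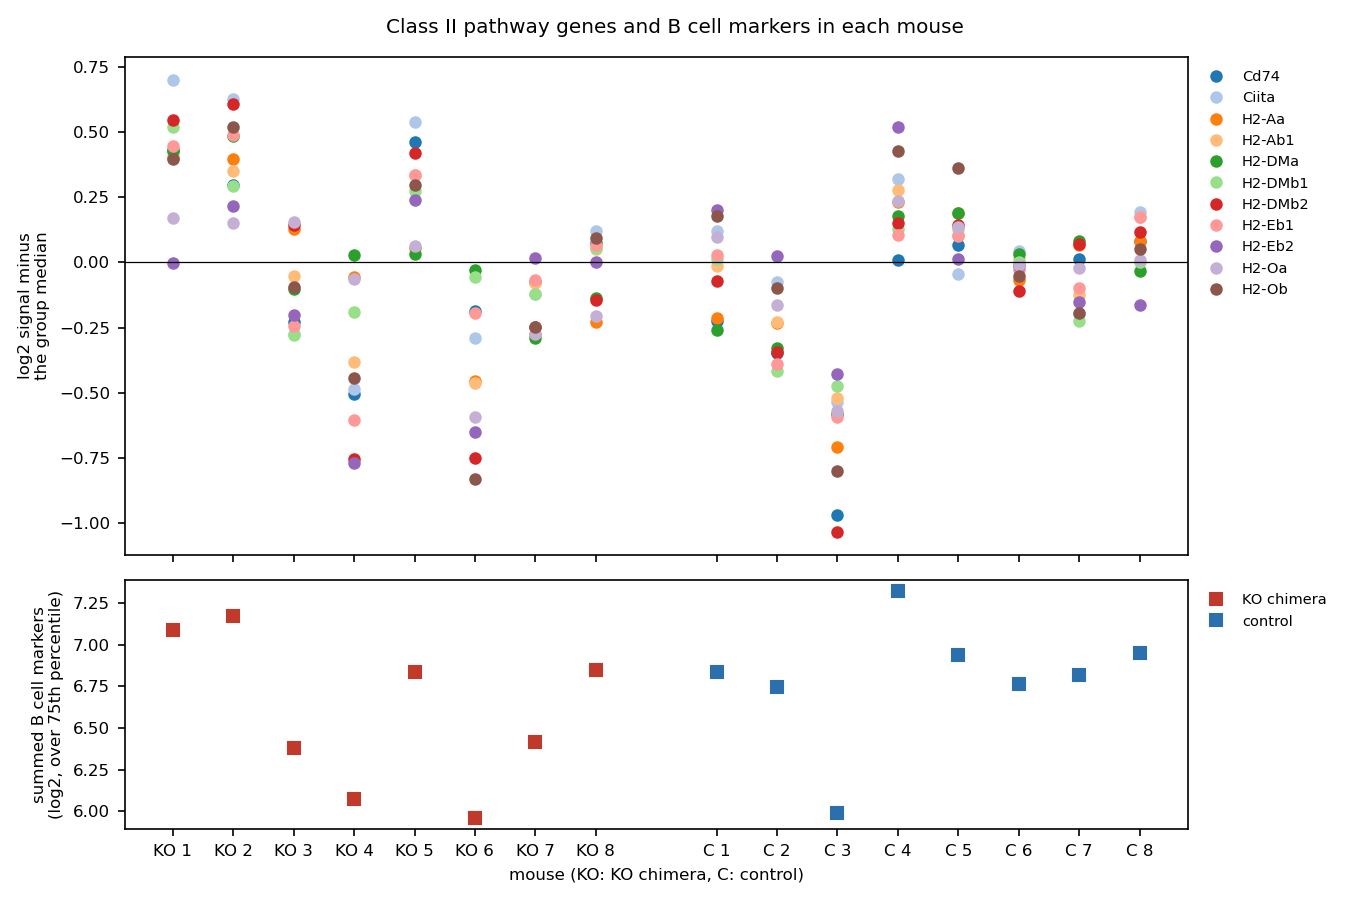
Top, log2 signal minus the median of the mouse's own group for 11 class II pathway genes; bottom, log2 of the summed B cell markers over the array's 75th percentile, KO chimeras left and controls right. KO chimeras 4 and 6 and control 3 are low in both panels.

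Some markers of the other cells that carry class II passed the test, against 10.2% of all genes higher and 12.1% lower by their brightest probe. Of the dendritic cell markers 4 were lower and 1 was higher among 11 measured, with a summed level of 257 to 400 in KO chimeras, against 252 to 299 in controls. That sum follows the bright probes of Siglech, a marker of plasmacytoid dendritic cells (median log2 signal 7.63 in KO chimeras and 7.53 in controls), and Cst3 (6.30 in KO chimeras and 5.86 in controls), while the median difference over the list was -0.26. Clec9a, a receptor of dendritic cells that take up dead cells, was lower by 1.56 on the log2 scale in KO chimeras (adjusted p = 1.18e-06), and Cst3, which most cells make and dendritic cells make in large amounts, was higher by 0.48 (adjusted p = 0.00439). Of the macrophage markers 6 were lower and 0 higher among 9 measured, with a sum of 15.8 to 25.6 in KO chimeras, against 21.1 to 31.3 in controls. Monocyte markers had 3 higher and 0 lower of 8, with a sum of 432 to 654 in KO chimeras, against 376 to 510 in controls. Of the dendritic cell list Xcr1, and of the macrophage list Cd163 and Mertk, had no kept probe. The part of these cells in the class II values was not tested.

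Outside the rule, a list of 21 genes that act in class II presentation had 20 measured genes, of which 1 was higher, 2 lower and 17 did not pass. Over all genes, 10.2% were higher and 12.1% lower by brightest probe. The median difference of the list was -0.04. Spi1, or PU.1, the myeloid and B cell transcription factor, had a lowest, median and highest log2 signal of 0.71, 1.18 and 1.56 in KO chimeras, against -0.24, 0.30 and 0.58 in controls, without overlap (difference 0.96, adjusted p = 1.31e-04). Nfya, the subunit of NF-Y that reads the Y box, had -0.27, 0.01 and 0.31 in KO chimeras, against 0.45, 0.63 and 0.84 in controls, also without overlap (difference -0.60, adjusted p = 1.22e-04). Of all probes, 3.06% had every KO chimera above every control and 3.28% had every KO chimera below. Cd80, a costimulatory ligand for T cells, differed by -0.30 (adjusted p = 0.0143). The other Y box subunits Nfyb (0.18, adjusted p = 0.241) and Nfyc (-0.09, adjusted p = 0.589) did not pass, nor did Ctss, the protease that trims Cd74 (-0.31, adjusted p = 0.0618).

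The matching list of 20 class I genes had 19 measured, of which 2 were higher, 2 lower and 15 did not pass, with a median difference of -0.07. Over all genes, 10.2% were higher and 12.1% lower by brightest probe. Besides Cd1d2, Irf1, an interferon response factor that drives class I transcription, was higher by 0.41 (adjusted p = 0.0313). Nlrc5, the class I counterpart of Ciita, had a lowest, median and highest log2 signal of 0.94, 1.21 and 2.11 in KO chimeras, against 1.69, 1.79 and 2.12 in controls, and differed by -0.57 (adjusted p = 0.00628). Psme1, a subunit of the proteasome activator PA28, had 4.03, 4.34 and 4.56 in KO chimeras, against 4.64, 4.68 and 4.88 in controls, without overlap (difference -0.39, adjusted p = 0.00196). Every KO chimera lay below every control in 3.28% of all probes. The immunoproteasome subunits Psmb8 (-0.13, adjusted p = 0.497) and Psmb9 (-0.20, adjusted p = 0.294) did not pass. H2-K1, H2-D1 and B2m, which Nlrc5 is known to drive, gave no call. Whether the lower Nlrc5 signal bears on them was not tested.

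H2-Ke2 and H2-Ke6 lie in the complex but encode no MHC molecule, H2-Ke2 being the prefoldin subunit now named Pfdn6. H2-Ke2 differed by 0.02 ± 0.08 (adjusted p = 0.880). H2-Ke6 differed by -0.17 ± 0.07 (adjusted p = 0.0811), and 6 of 8 KO chimeras lay below the lowest control.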

How the data were processed

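Cy3-labelled total RNA was measured on 1-colour Agilent arrays, per the labels' protocols. Sample titles gave the group and number of each mouse. The deposited scanner files hold linear spot intensity after background subtraction in Agilent Feature Extraction, per the file headers (version 10.1.1.1; 10.7 per the submitters' processing notes). The authors' value table, with 59305 rows, holds log2 values that the labels describe as quantile normalized; each column correlated with its array at r = 0.991 or more. Direction and log2 scale follow from that match; its centring is not stated. Column medians ran from 4.98 to 5.0, and the lowest value, 2.3, is a floor. It was used as an alternative.

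Spots that the scanner software calls outliers were dropped, repeated spots averaged, and log2 processed signals were set against the 75th percentile of all non-control spots of the array. A further 4 of the kept probes had under 3 values in a group, so 32689 were tested. The test was limma's (3.58.1, R 4.3.3; lmFit, then eBayes), two-sided, with Benjamini-Hochberg adjustment over all tested probes and a call at adjusted p under 0.05. Intervals are 95% intervals of that fit. The fit was tested on simulated data with independent noise in each array. Those data held no slide, scan day or single-mouse effect, so they do not bear on such effects. Array brightness was compared with an exact two-sided permutation test (p = 0.301 for the 75th percentile and p = 0.0692 for the number of probes well above background, n = 8 per group).

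Gene names are those of the array design. RefSeq accessions matched 52 of the 63 member probes, 51 under the same symbol. The files place probes on mm9, and exons were not used here; promoters are from RefSeq (GRCm38.p6). Pairs of arrays correlated at 0.960 to 0.993, so no 2 held identical values. Arrays lay on 6 slides, 5 with both groups, and were scanned on 2 days. The members and lists were chosen with earlier results of these data known. Named genes were the brightest kept probe of each class II, accessory and classical class I gene, every called nonclassical probe, and other probes of a gene that differ from its brightest in direction or call; from each other list, the counts and up to 4 called genes by smallest adjusted p, with a few uncalled genes named after their values were seen. Alternatives were other normalizations and background corrections, the authors' values, other filters, blocks for slide, scan day or replicate number, array brightness as a covariate, array weights, leaving out each mouse, other summaries per gene and a stricter threshold. No read depth applies to arrays, and the number of mice limits the precision.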

Additional observations from a re-analysis of the deposited data

Results flagged for a closer look

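In 4 of 98 groups of 7 or 8 mice (49 probes in KO chimeras and in controls), 1 mouse lay far from the others of its group, by Dixon's test at the 95% level, which chance alone gives in about 1 of 20 groups. All 4 values belong to control 3. Its log2 signal was 5.16 for Cd74, against 5.78 to 6.21 in the other controls, and -1.23 for H2-DMb2, against -0.54 to -0.04. It was 1.26 for the middle H2-Ob probe, against 2.00 to 2.42, and -0.37 for H2-M11, against 0.15 to 0.53. The first 3 belong to the class II pathway, for which control 3 was the lowest control in all 11 genes compared.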

How the results depend on the processing

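The number of member probes higher in KO chimeras, 8, was 2 within scan day 1, 3 within scan day 2 (4 mice of each group a day), and 5 with the brightest probe per gene, which tests fewer probes; leaving out each mouse gave 7 to 8, and the other settings 6 to 9. The number lower, 2, was 6 with slide as a block and on the slides with both groups, 0 within each scan day and at adjusted p under 0.01, 1 with replicate number as a block, 4 with array brightness as a covariate and 5 with array weights, where H2-Q10 and H2-T3 joined in both and Tapbp with weights; leaving out each mouse gave 2 to 5, and the cause of these shifts was not tested beyond the mice named above. The H2-Q10 and H2-T3 probes that joined share a run of 22 bases. Replicate numbers did not pair the mice (same-number correlations from -0.19 to 0.19), and under the replicate block H2-Eb2 had an adjusted p of 0.0524. H2-T10, the brighter H2-T24 probe and the brighter Cd1d1 probe kept their calls under all alternatives except within scan day 1, where the differences were 0.68, 0.80 and 0.33. H2-Q5, the dimmer Cd1d1 probe and the dimmest H2-Ob probe lost theirs within both scan days, and the dimmer H2-M2 probe within day 2. Ciita was lost within scan days 1 and 2 (-0.71 and -0.48) and at adjusted p under 0.01. H2-M9 lost its call under 18 of 29 alternatives. Signal close to background limits the dim probes of H2-M2, H2-M9, H2-Ob and H2-DMb1.

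Differences near 0 changed sign, as did that of the brightest H2-Ob probe, all without a call on either side. With slide as a block, on all slides or those with both groups, they were -0.084 for the brighter H2-M2 probe, -0.080 for the dimmer H2-Q10 probe, -0.0033 for H2-Q2, -0.0041 for H2-T23 and -0.10 for H2-DMa. With brightness as a covariate, H2-Q10 and H2-DMa were -0.067 and H2-Q4 was -0.065. Array weights gave 0.019 for H2-K1, -0.014 for H2-M2, 0.022 for H2-M3, -0.083 for H2-Q10 and H2-Q4, -0.023 for H2-Q2, -0.043 for H2-DMa and 0.033 for the middle H2-Ob probe. The mean of a gene's probes gave 0.11 for H2-K1 and 0.22 for H2-Ob, against -0.22 on the brightest H2-Ob probe. That mean takes in the dimmest H2-Ob probe, which differed by 0.96. H2-M3 was 0.011 under quantile normalization, 0.013 with normexp and 0.0099 in the authors' values. Within scan day 1, H2-DMa was -0.00068, Tap2 0.014 and H2-Ke2 -0.077. Within scan day 2, H2-K1 was 0.088, H2-M2 -0.057, H2-M3 0.032, H2-Q10 -0.071, H2-Q4 -0.0096 and H2-Ob 0.081. Leaving out each mouse gave -0.055 to 0.047 for H2-K1, -0.0051 to 0.13 for H2-M11, -0.036 to 0.11 for H2-M2, -0.079 to 0.039 for H2-M3, -0.024 to 0.094 for H2-Q10, -0.064 to 0.086 for H2-Q4, -0.058 to 0.061 for H2-DMa, -0.19 to 0.036 for H2-Ob and -0.017 to 0.049 for H2-Ke2.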
